A study of Mus musculus with 13 samples.

Results

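The 10 genes described here mark macrophages that are alternatively activated or long resident in a tissue: Arg1, Mrc1, Retnla, Chil3, Clec10a, Clec7a, F13a1, Cd163, Lyve1 and Cbr2. They were chosen by symbol, with earlier results of these data known. All 10 of 10 have a probe set that carries that symbol alone, among 18193 genes with such a probe set on the arrays. Their RNA was followed in SM1 tumours, a transplantable mouse melanoma with mutant BRAF. The mice received splenocytes by adoptive transfer, either from pmel-1 mice, which are transgenic for a T cell receptor against gp100, a pigment cell protein, or from C57BL/6 mice as the control transfer. Control recipients were given vehicle (2 arrays) or dabrafenib, a BRAF inhibitor, together with trametinib, a MEK inhibitor (2 arrays). Recipients of pmel-1 cells were given vehicle, dabrafenib or trametinib (2 arrays each) or both drugs (3 arrays). All groups thus share the tumour and a transfer of splenocytes, and no group went without a transfer. The sources used here give no dose, time, batch, or age of the mice. They do not say that replicates are separate animals, and p-values then measure only how far these samples spread, which may be technical. Whole tumours were measured, so fewer cells of a type and less RNA per cell cannot be told apart.

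Macrophages exposed to IL-4 or IL-13 activate the transcription factor STAT6 and take on a program often called alternative activation. In mice this program includes the enzyme arginase 1 (Arg1), which uses up arginine, the secreted proteins RELMα (Retnla) and Ym1 (Chil3), the mannose receptor CD206 (Mrc1) and the galactose-type lectin Clec10a. Clec7a encodes dectin-1, a receptor for fungal β-glucan that IL-4 also induces. F13a1, the A subunit of coagulation factor XIII, Cd163, the scavenger receptor for haptoglobin-haemoglobin complexes, Lyve1, a hyaluronan receptor, and Cbr2, a carbonyl reductase, are known from macrophages that reside in tissues, often along vessels. Lyve1 is also a marker of lymphatic endothelium, and Arg1 and Chil3 can be made by neutrophils and monocytes.

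In the RefSeq annotation (GRCm38.p6) the members lie on separate chromosomes for the most part. Clec7a is at chr6:129461591-129472785 and Cd163 at chr6:124304636-124330529, Clec10a at chr11:70166623-70170836 and Cbr2 at chr11:120729485-120732025. Mrc1 is at chr2:14229414-14332023, Chil3 at chr3:106147554-106167564, Lyve1 at chr7:110850607-110862953, Arg1 at chr10:24915207-24927470, F13a1 at chr13:36867178-37050244 and Retnla at chr16:48842609-48844461. Promoter sequence was at hand for 7 of the 10 members, as the 250 bases before the annotated start. Clec7a and Retnla, the only members that rose with both drugs in both kinds of recipient, are printed with F13a1, which fell with the drugs in pmel-1 recipients. Capitals mark the STAT6 motif, TTC and GAA with any 4 bases between them, and the core motif GAGGAA of ETS factors such as the macrophage factor PU.1, both searched on both strands, so that GAGGAA can appear as TTCCTC.
Clec7a promoter, chr6:129472780-129473029, minus strand: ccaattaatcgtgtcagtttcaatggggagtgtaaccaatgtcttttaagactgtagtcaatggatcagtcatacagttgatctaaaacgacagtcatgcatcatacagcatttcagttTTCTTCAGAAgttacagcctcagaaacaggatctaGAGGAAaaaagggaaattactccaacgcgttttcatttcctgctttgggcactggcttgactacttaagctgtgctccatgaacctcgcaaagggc
Retnla promoter, chr16:48842359-48842608, plus strand: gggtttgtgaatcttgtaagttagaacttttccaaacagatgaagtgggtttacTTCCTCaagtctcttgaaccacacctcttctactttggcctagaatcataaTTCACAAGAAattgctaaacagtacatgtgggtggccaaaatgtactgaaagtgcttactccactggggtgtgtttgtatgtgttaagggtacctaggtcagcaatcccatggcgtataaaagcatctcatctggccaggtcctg
F13a1 promoter, chr13:37050245-37050494, minus strand: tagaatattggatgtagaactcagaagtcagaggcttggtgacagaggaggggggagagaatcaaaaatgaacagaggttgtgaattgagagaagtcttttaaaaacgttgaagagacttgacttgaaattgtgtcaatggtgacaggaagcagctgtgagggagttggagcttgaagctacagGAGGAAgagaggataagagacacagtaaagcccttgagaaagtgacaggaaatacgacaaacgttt
The STAT6 motif was found in 2 of the 7 promoters, those of Clec7a (at -131 from the start) and Retnla (at -145), and in 5.86% of 27025 promoters of the same length. GAGGAA was found in 5 of 7 (Cbr2, Clec7a, F13a1, Mrc1 and Retnla), beside 23.1% of all promoters. The AP-1 motif TGANTCA was found in 0 of 7 and in 6.87% of all promoters. These matches are descriptions of sequence and were not tested against the arrays.

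Values are log2 intensities, so a difference of 1 is a doubling. A level of 5.79, the 40th percentile of all values, is taken as the threshold below which a probe set is not well above background, and 13783 genes above it on at least 2 arrays were tested with limma, an adjusted p under 0.05 counting as a call. Of the 10 members 9 were tested, and Cd163, above 5.79 on 1 array, was not. Mrc1, Clec10a, Clec7a, F13a1 and Cbr2 were above the threshold on all 13 arrays, Retnla on 10, Chil3 on 9, Arg1 on 8 and Lyve1 on 4. Where every array of a group was under the threshold the size of a difference is not exact, and no fold is given. Macrophage RNA was present on every array. The mean of 14 general macrophage genes with a probe set, such as Csf1r, C1qa and Ctss, was 7.57 to 7.76 in control vehicle, 8.29 to 8.64 in control combination and 7.93 to 7.98 in pmel-1 vehicle tumours. It was 9.20 to 9.76 with dabrafenib, 8.15 to 8.55 with trametinib and 9.23 to 9.59 with both drugs in pmel-1 recipients. At least 12 of these 14 genes were above the threshold on every array, and Itgam was below it on all.

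Several other measures differed between arrays. The 3′ over 5′ log2 ratio of actin and Gapdh control probe sets, which rises as RNA degrades, was 0.18 to 0.42 in the 6 arrays of control recipients and of pmel-1 vehicle tumours, and 0.60 to 1.65 in the 7 arrays of drug-treated pmel-1 recipients. Adipoq, the fat cell hormone adiponectin, was above 9 on 3 arrays, all of pmel-1 recipients: it read 10.32 in dabrafenib replicate 2, 10.05 in combination replicate 2 and 9.30 in trametinib replicate 1. Acta1, the actin of skeletal muscle, was 9.90 in control vehicle replicate 3 and 5.51 to 6.61 on the other arrays. Calls on members that were lost or gained without the 3 arrays with high Adipoq, or with that ratio in the fit, are given with both values.

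**Figure D1:**
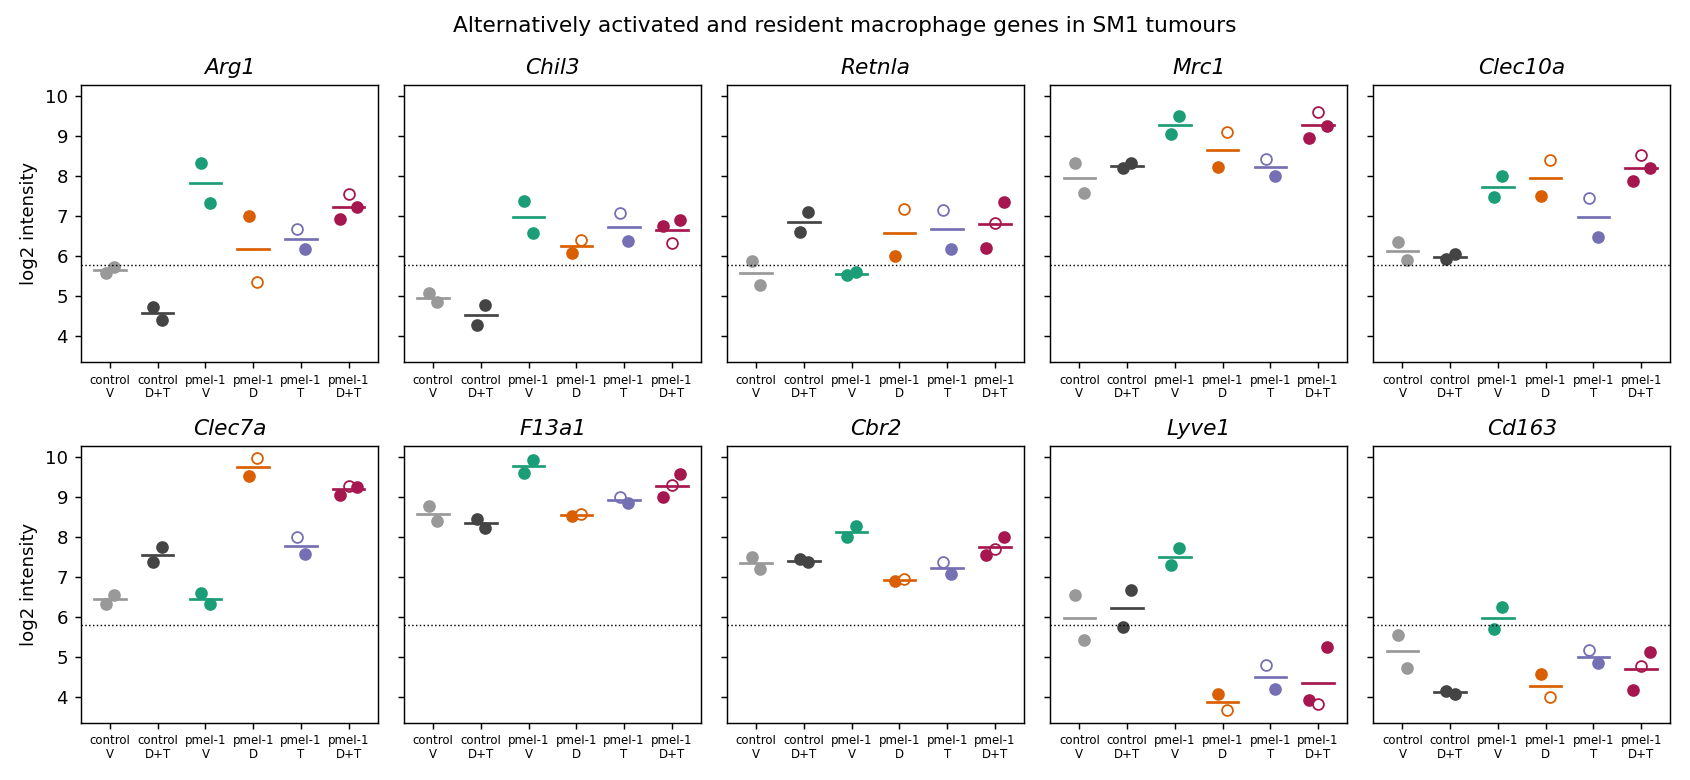
Log2 intensity (vertical axis, shared by all panels) of the 10 members on each of 13 arrays, by group: control or pmel-1 recipients given vehicle (V), dabrafenib (D), trametinib (T) or both (D+T). Each point is 1 array, the bar is the group mean, open points are the 3 arrays with Adipoq above 9, and the dotted line is the threshold of 5.79. Clec7a is highest in pmel-1 tumours given dabrafenib or both drugs. Lyve1 is below the line on all drug-treated pmel-1 arrays, and Arg1 and Chil3 are below the line in all 4 control-transfer arrays.

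With both drugs in pmel-1 recipients, Clec7a and Retnla rose against vehicle and Lyve1 and F13a1 fell. That is 4 of the 9 members tested, beside 45.6% of all genes called in this comparison (24.3% higher, 21.2% lower), so the share is close to the background. The median difference of the members was -0.31, beside 0.02 for all genes tested. In control recipients 2 members were called, both higher, Clec7a and Retnla, beside 35.4% of all genes (18.7% higher, 16.7% lower), and the median was 0.06 beside 0.00. Retnla is in both counts, and without drug-treated arrays it would not have passed the filter, so its direction was built into its entry. Dabrafenib alone gave 5 calls (Clec7a higher, Arg1, F13a1, Lyve1 and Cbr2 lower, beside 41.4% of all genes, 21.9% higher and 19.6% lower), with a median of -0.73. Trametinib alone gave 6 calls (Clec7a higher, Arg1, Mrc1, F13a1, Lyve1 and Cbr2 lower, beside 38.6%, 19.5% higher and 19.1% lower), with a median of -0.84. The 3 comparisons in pmel-1 recipients use the same 2 vehicle arrays, so a high or low value there enters all of them. Of the 13 general macrophage genes tested, 11 rose with both drugs in pmel-1 recipients (median 1.59), 12 with dabrafenib (1.70), 2 with trametinib (0.39) and 9 with both drugs in control recipients (0.95), and none fell. Without control combination replicate 3 the count in control recipients was 2 in place of 9, and that for trametinib was 0 with the 3′ over 5′ covariate or without pmel-1 vehicle replicate 2 or trametinib replicate 1.

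**Figure D2:**
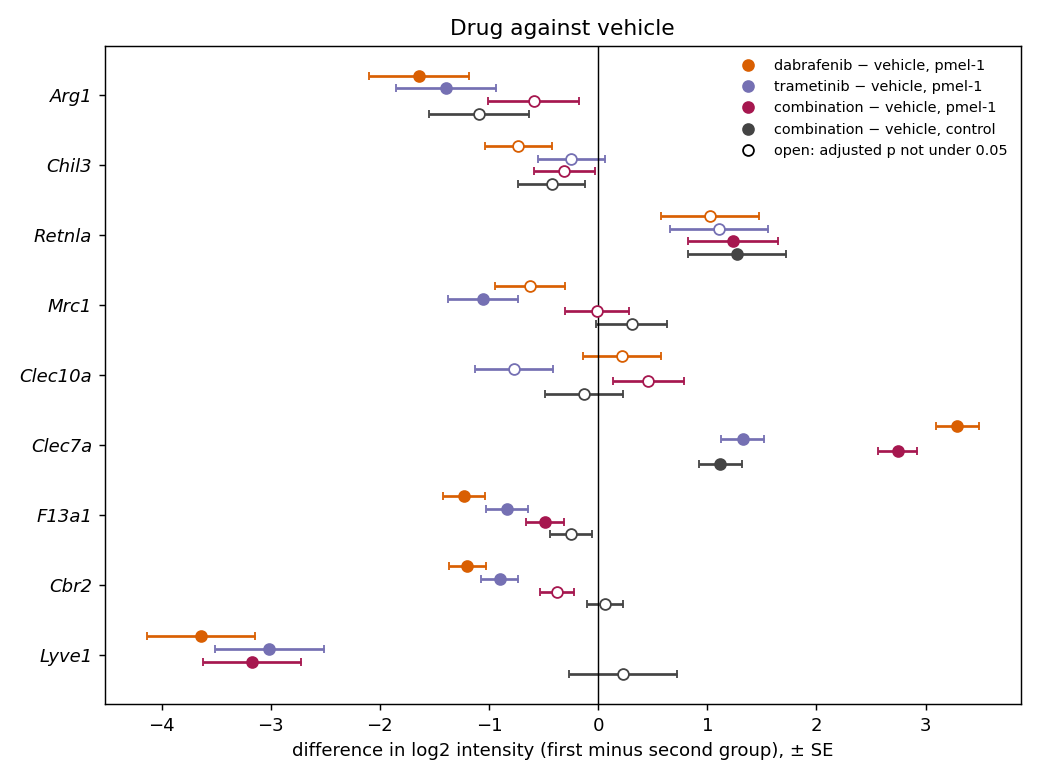
Difference in log2 intensity against vehicle (horizontal axis, ± SE from limma) of the 9 members tested, for dabrafenib, trametinib and both drugs in pmel-1 recipients and both drugs in control recipients. Filled points have an adjusted p under 0.05. Clec7a lies to the right of 0 in all 4 comparisons, while Lyve1 lies near -3 in the 3 comparisons within pmel-1 recipients and near 0 in control recipients.

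Clec7a, dectin-1, rose in all 4 comparisons of a drug treatment with vehicle. It read 6.34 and 6.55 in control vehicle tumours, 7.37 and 7.76 in control combination tumours and 6.59 and 6.33 in pmel-1 vehicle tumours. In pmel-1 recipients it read 9.53 and 9.97 with dabrafenib, 7.99 and 7.58 with trametinib and 9.06, 9.28 and 9.26 with both. The vehicle arrays of both transfers lay together, every drug-treated array was above them, and the order of group means was dabrafenib, both drugs, trametinib, control combination, with no overlap between the first and the second or the second and the third. Against vehicle in pmel-1 recipients it rose by 3.29 ± 0.20 with dabrafenib (9.80-fold, adjusted p = 2.31e-06, limma). With both drugs it rose by 2.74 ± 0.18 (6.70-fold, adjusted p = 2.74e-06), and with trametinib by 1.33 ± 0.20 (2.51-fold, adjusted p = 0.000406). In control recipients both drugs raised it by 1.12 ± 0.20 (2.17-fold, adjusted p = 0.00118). These 4 calls held under all 21 alternative settings tried, in which adjusted p was at most 0.016.

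The response of Clec7a to both drugs was larger after pmel-1 than after control transfer, by 1.62 ± 0.27 (adjusted p = 0.0498, limma interaction term), the only one of 9 members called, beside 0.283% of all genes. This call is at the edge of the threshold. It held in 7 of 21 alternative settings, with differences from 1.24 to 1.82 and adjusted p from 0.0224 to 0.332. It was lost without any 1 of 11 arrays, namely those of both control groups, pmel-1 vehicle, trametinib and both drugs, and the highest adjusted p among these was 0.261, without pmel-1 vehicle replicate 1. With the 3′ over 5′ covariate the difference was 1.24 (adjusted p = 0.332), and without control vehicle replicate 3, the array with high Acta1, it was 1.52 (adjusted p = 0.232). It was also lost under median centring (1.59, adjusted p = 0.0549) and with a replicate block (1.54, 0.118). The general macrophage genes moved in the same direction, with a median interaction of 0.68 over 13 genes, of which 0 were called.

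Between the drugs Clec7a was again the only member called. Dabrafenib gave 1.97 ± 0.20 more than trametinib (3.91-fold, adjusted p = 0.00465), beside 0.776% of all genes. Both drugs gave 1.42 ± 0.18 more than trametinib (2.67-fold, adjusted p = 0.00854), beside 1.1%. Both drugs against dabrafenib gave no call among members or all genes (0% of 13783 by limma), where 4 members and 246 genes had an unadjusted p under 0.05. The difference for Clec7a there was -0.55 (95% interval -0.94 to -0.16), with no overlap of arrays and an adjusted p of 1. Without trametinib replicate 2 both calls against trametinib were lost, at 1.76 (adjusted p = 0.0954) for dabrafenib and 1.21 (adjusted p = 0.186) for both drugs. The call for dabrafenib was also lost with only the arrays compared in the fit (1.97, adjusted p = 0.134), and that for both drugs with a replicate block (1.35, 0.0511). General macrophage genes differed in the same comparisons, with 6 of 13 higher with dabrafenib than with trametinib (median 1.24) and 5 of 13 higher with both drugs than with trametinib (median 1.15). These counts ran from 0 to 11 and from 0 to 10 over the alternatives. The first was 0 with only the arrays compared, without the arrays with high Adipoq, and without dabrafenib replicate 2 or trametinib replicate 2. The second was 0 with the replicate block and without trametinib replicate 2.

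Retnla, the secreted protein RELMα, was low with vehicle and higher with the drugs after either transfer. It read 5.88 and 5.28 in control vehicle, 6.60 and 7.11 in control combination and 5.52 and 5.62 in pmel-1 vehicle tumours. With drugs in pmel-1 recipients it read 6.01 and 7.18 (dabrafenib), 7.17 and 6.18 (trametinib) and 6.22, 6.83 and 7.37 (both). All 9 drug-treated arrays were above all 4 vehicle arrays, and the drug groups overlapped one another. Only 1 of the 4 vehicle arrays was above the threshold, so Retnla would not have passed the filter without drug-treated arrays. A rise with the drugs was thus built into its entry, though the call in pmel-1 recipients held with no filter. Both drugs raised it by 1.23 ± 0.41 in pmel-1 recipients (adjusted p = 0.0289, limma) and by 1.27 ± 0.45 in control recipients (adjusted p = 0.0468). The single drugs gave 1.03 ± 0.45 for dabrafenib (adjusted p = 0.0913) and 1.11 ± 0.45 for trametinib (adjusted p = 0.0733), which did not pass. Neither call was firm. The pmel-1 call was lost without either vehicle array (adjusted p = 0.127 and 0.0969), without combination replicate 2 (0.0629) or 3 (0.0936), and with the 3′ over 5′ covariate, where the difference was 0.46 (adjusted p = 0.64), and with the replicate block (1.13, 0.0762). In control recipients the call was lost without any of its own 4 arrays (adjusted p from 0.0582 to 0.246), and also without either pmel-1 vehicle array (0.0639) or pmel-1 combination replicate 2 (0.0597). Median centring (0.0524), no filter (0.0526) and the replicate block (0.102) ended it too. Within each drug group of pmel-1 recipients Retnla was lowest on the array with the lowest Adipoq. Adipoq read 4.92 there with dabrafenib, 5.41 with trametinib and 5.47 with both. In control combination tumours, where Retnla was also higher than with vehicle, Adipoq read 5.77 and 5.80. Both calls held without the 3 arrays with high Adipoq, and the part of fat cells in the level of Retnla was not tested. The paralogue Retnlb was under the threshold on all arrays.

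Arg1 and Chil3, which in the mouse encode arginase 1 and Ym1, were under the threshold on every control-transfer array. Arg1 read 5.59 and 5.74 in control vehicle and 4.74 and 4.41 in control combination tumours. In pmel-1 recipients it read 8.33 and 7.33 with vehicle, 7.02 and 5.37 with dabrafenib, 6.68 and 6.19 with trametinib and 6.93, 7.55 and 7.25 with both. Only dabrafenib replicate 2, an array with high Adipoq, fell among the control values. Arg1 was lower than vehicle with dabrafenib (-1.64 ± 0.46, adjusted p = 0.014, limma) and with trametinib (-1.40 ± 0.46, adjusted p = 0.0315). With both drugs the difference was -0.59 ± 0.42 (adjusted p = 0.283). The dabrafenib call rests on the lowest array: without it the difference was -0.82 (adjusted p = 0.138), without the 3 arrays with high Adipoq it was -0.82 as well (adjusted p = 0.126), and without pmel-1 vehicle replicate 1 it was -1.14 (adjusted p = 0.134). With only the arrays compared in the fit the call was lost too (adjusted p = 0.0873). The trametinib call was lost without pmel-1 vehicle replicate 1 (-0.90, adjusted p = 0.245) or trametinib replicate 1 (-1.65, 0.0578) or 2 (-1.15, 0.162). With the 3′ over 5′ covariate the differences were -0.80 (adjusted p = 0.381) and -0.72 (adjusted p = 0.362). In control recipients Arg1 differed by -1.09 with both drugs (adjusted p = 0.0874), and by the same with an adjusted p of 0.017 without the arrays with high Adipoq.

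Chil3 read 5.08 and 4.85 in control vehicle and 4.29 and 4.78 in control combination tumours, again under the threshold on all 4. In pmel-1 recipients it read 7.39 and 6.57 with vehicle, 6.09 and 6.40 with dabrafenib, 7.09 and 6.38 with trametinib and 6.77, 6.34 and 6.90 with both. Every pmel-1 array was above every control array, and no drug changed it past the test in pmel-1 recipients. The differences from vehicle were -0.73 (95% interval -1.40 to -0.06) for dabrafenib, -0.25 (-0.92 to 0.43) for trametinib and -0.31 (-0.92 to 0.30) for both. Chil4, a close relative, was under the threshold on all arrays, as was a probe set that both genes share (4.64 to 5.77).

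Mrc1, the mannose receptor, was well above the threshold on every array. It read 8.33 and 7.59 in control vehicle, 8.21 and 8.33 in control combination and 9.07 and 9.50 in pmel-1 vehicle tumours. With drugs in pmel-1 recipients it read 8.23 and 9.10 (dabrafenib), 8.45 and 8.02 (trametinib) and 8.95, 9.62 and 9.25 (both). The trametinib arrays lay within the control range (8.02) or just above it (8.45), and those of vehicle and of both drugs were above all control arrays. Mrc1 fell with trametinib by 1.05 ± 0.32 (0.482 times the vehicle level, adjusted p = 0.0235, limma). Without pmel-1 vehicle replicate 2 or trametinib replicate 2 the difference was -0.84 in either case (adjusted p = 0.147 and 0.143). With both drugs it was -0.01 ± 0.29 (adjusted p = 0.979), beside a median of 1.59 for the general macrophage genes. With dabrafenib it was -0.62, which did not pass, but did without the arrays with high Adipoq (-1.06, adjusted p = 0.032) and with the 3′ over 5′ covariate (-1.26, 0.0457).

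Clec10a, the galactose-type lectin, separated the recipients of pmel-1 cells from the control recipients. It read 6.35 and 5.90 in control vehicle and 5.93 and 6.05 in control combination tumours. In pmel-1 recipients it read 7.49 and 8.01 with vehicle, 7.52 and 8.41 with dabrafenib, 7.47 and 6.5 with trametinib and 7.88, 8.54 and 8.20 with both. All 9 pmel-1 arrays were above all 4 control arrays, and trametinib replicate 2 was the lowest of them. No drug comparison passed the test: the differences from vehicle were 0.22 with dabrafenib, -0.77 with trametinib (adjusted p = 0.116) and 0.46 with both (adjusted p = 0.287). The trametinib difference passed without the arrays with high Adipoq (-1.25, adjusted p = 0.00854) and with the 3′ over 5′ covariate (-1.41, 0.0176). Without the arrays with high Adipoq, Clec10a was also higher with both drugs than with trametinib (1.55, adjusted p = 0.039). Mgl2, the paralogue of Clec10a, read 4.48 to 6.55 over the arrays and rose with both drugs in pmel-1 recipients by 1.19 ± 0.22 (adjusted p = 0.00113), from a vehicle group under the threshold. It passed the filter only through dabrafenib replicate 2 and the 3 arrays of both drugs, so a rise there was built into its entry, though it was also called with no filter. Whether the responses of Mgl2 and Clec10a differ was not tested.

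Among the genes of resident macrophages, Lyve1 fell with each treatment in pmel-1 recipients. It read 6.54 and 5.44 in control vehicle and 5.76 and 6.68 in control combination tumours, around the threshold. In pmel-1 recipients it read 7.30 and 7.73 with vehicle, but 4.07 and 3.68 with dabrafenib, 4.80 and 4.20 with trametinib and 3.93, 3.84 and 5.26 with both. The 2 pmel-1 vehicle arrays were the highest of all 13 and the 7 drug-treated pmel-1 arrays the lowest, all 7 under the threshold, with the 4 control arrays between them. It fell by 3.64 ± 0.50 with dabrafenib (adjusted p = 0.000236, limma), by 3.01 ± 0.50 with trametinib (adjusted p = 0.000775) and by 3.17 ± 0.45 with both (adjusted p = 0.000226). These 3 calls held under all 21 alternative settings, with adjusted p of at most 0.0179. In control recipients the difference was 0.23 (95% interval -0.86 to 1.32). The difference between these responses was -3.40 ± 0.67 and did not pass (adjusted p = 0.0705), though without pmel-1 combination replicate 3, the highest of its group, it did (-3.86, adjusted p = 0.0294). A second probe set of Lyve1 was under the threshold on all arrays (4.30 to 5.78). Of the lymphatic endothelial genes, Prox1 and Mmrn1 were under the threshold on all arrays, and Flt4 was above it on all 13. The mean of 6 such genes was 6.97 to 7.15 in pmel-1 vehicle tumours and 7.20 to 7.41 in drug-treated pmel-1 tumours. Of these 6 genes, 4 were above the threshold on both pmel-1 vehicle arrays and 3 on every drug-treated pmel-1 array. In control recipients 4 were above it with vehicle and 3 or 4 with both drugs.

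F13a1 and Cbr2 fell with each single drug, and F13a1 also with both. F13a1 read 8.77 and 8.41 in control vehicle, 8.47 and 8.22 in control combination and 9.61 and 9.94 in pmel-1 vehicle tumours. With drugs in pmel-1 recipients it read 8.52 and 8.57 (dabrafenib), 9.01 and 8.87 (trametinib) and 8.99, 9.30 and 9.57 (both). The pmel-1 vehicle arrays were above all others, and the dabrafenib arrays lay within the control range. F13a1 fell by 1.23 ± 0.19 with dabrafenib (0.426 times vehicle, adjusted p = 0.000531, limma), by 0.84 ± 0.19 with trametinib (0.560 times, adjusted p = 0.00524) and by 0.49 ± 0.17 with both (0.713 times, adjusted p = 0.0403). The dabrafenib call held under all 21 alternatives. The call for both drugs held under 11 of them and was lost without pmel-1 vehicle replicate 2 (-0.33, adjusted p = 0.285), combination replicate 1 (-0.34, 0.122) or 2 (-0.49, 0.077) or either trametinib array (0.0514), and with the 3′ over 5′ covariate (-0.39, 0.366). It was also lost without the arrays with high Adipoq (-0.49, adjusted p = 0.105), with array weights (-0.38, 0.0751), with the replicate block (-0.48, 0.08) and with only the arrays compared (-0.49, 0.065). The trametinib call was lost without pmel-1 vehicle replicate 2 (-0.67, adjusted p = 0.0515) and with that covariate (-0.76, 0.0527).

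Cbr2 read 7.51 and 7.19 in control vehicle, 7.46 and 7.38 in control combination and 8.0 and 8.27 in pmel-1 vehicle tumours. With drugs in pmel-1 recipients it read 6.91 and 6.96 (dabrafenib), 7.37 and 7.09 (trametinib) and 7.56, 7.70 and 8.0 (both). The dabrafenib arrays were the lowest of the 13, and those of both drugs reached up to the lower vehicle array. It fell by 1.20 ± 0.17 with dabrafenib (0.436 times vehicle, adjusted p = 0.000284, limma) and by 0.90 ± 0.17 with trametinib (0.535 times, adjusted p = 0.00161), and both calls held under all 21 alternatives. With both drugs the difference was -0.38 ± 0.15 (adjusted p = 0.0664). Against dabrafenib alone, both drugs gave 0.82 more Cbr2 (95% interval 0.48 to 1.16) and 0.74 more F13a1 (0.36 to 1.13), with no overlap of arrays for either but an adjusted p of 1 over all genes.

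Cd163, the haemoglobin scavenger receptor, was above the threshold on 1 array. It read 5.55 and 4.73 in control vehicle, 4.16 and 4.09 in control combination and 5.71 and 6.24 in pmel-1 vehicle tumours. With drugs in pmel-1 recipients it read 4.57 and 4.0 (dabrafenib), 5.18 and 4.85 (trametinib) and 4.18, 4.78 and 5.14 (both). The pmel-1 vehicle arrays were the highest, as for Lyve1 and F13a1. In a fit of all genes with no filter on low values, the difference from vehicle in pmel-1 recipients was -1.69 ± 0.33 with dabrafenib (adjusted p = 0.00223, limma), -0.96 ± 0.33 with trametinib (0.0467) and -1.27 ± 0.30 with both (0.00573). In control recipients it was -1.02 ± 0.33 (0.0392), where all 4 arrays were under the threshold, so no size is read from it.

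Pmel-1 and control recipients were then compared within each treatment. Among tumours given both drugs, 6 of 9 members were called between pmel-1 and control recipients, 5 higher and 1 lower, beside 4.24% of all genes (2.66% higher, 1.58% lower). The arrays of the 2 groups did not overlap for 8 of 9 members, beside 42.6% of all genes, and the median difference was 1.01, beside -0.01 for all genes. The members were chosen with earlier results of these data known, so the shares set beside all genes here and below are descriptions. Arg1 was higher by 2.67 ± 0.42 (adjusted p = 0.00675, limma) and Chil3 by 2.13 ± 0.28 (adjusted p = 0.00234), both from control groups under the threshold. Both genes passed the filter only through arrays of pmel-1 recipients, so a difference in this direction was built into their entry, and they stayed called with no filter. Clec10a was higher by 2.21 ± 0.33 (4.64-fold, adjusted p = 0.00468), Clec7a by 1.64 ± 0.18 (3.12-fold, adjusted p = 0.000694) and F13a1 by 0.94 ± 0.17 (1.92-fold, adjusted p = 0.0166). Lyve1 was lower by 1.88 on the log2 scale (-1.88 ± 0.45, adjusted p = 0.0436). Mrc1 was 1.01 higher (adjusted p = 0.0738), and Cbr2 0.34 (0.205), while Retnla differed by -0.05 (95% interval -0.95 to 0.85).

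**Figure D3:**
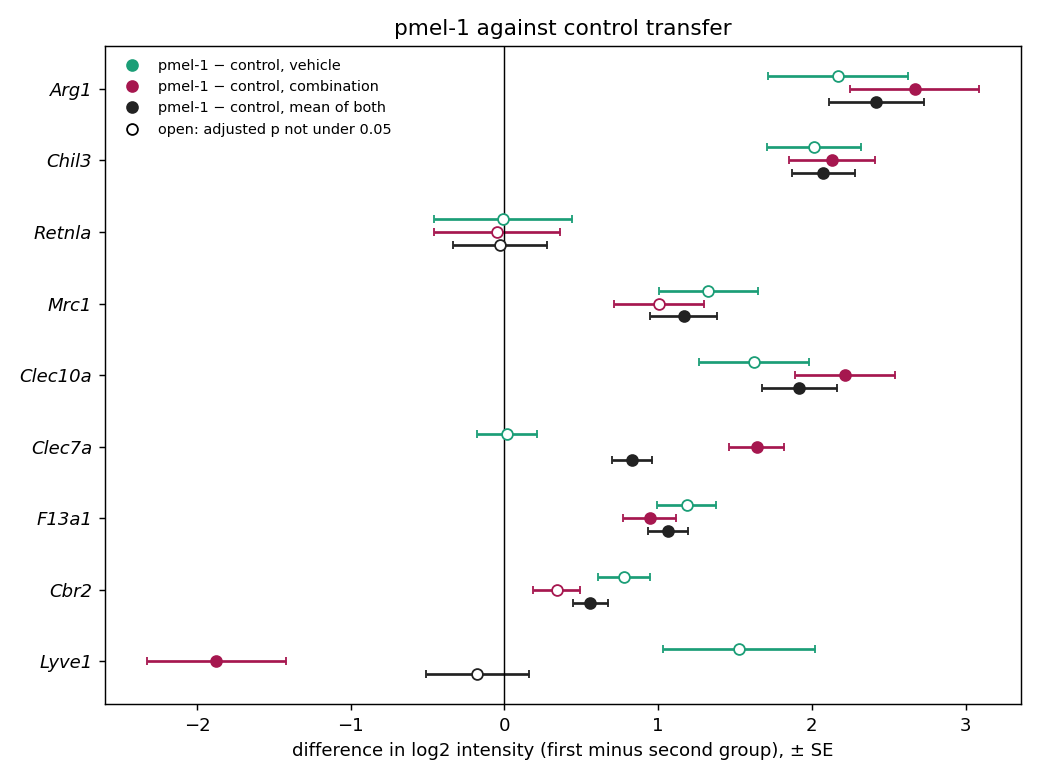
Difference in log2 intensity between pmel-1 and control recipients (horizontal axis, ± SE from limma) of the 9 members tested, in vehicle tumours, in tumours given both drugs, and as the mean of both. Filled points have an adjusted p under 0.05. Arg1, Chil3, Clec10a, Mrc1, F13a1 and Cbr2 lie to the right of 0 in all 3, Retnla lies at 0, Clec7a lies at 0.02 in vehicle tumours and at 1.64 with both drugs, and Lyve1 lies on opposite sides of 0 in the 2 arms.

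Several of these calls changed when 1 array was left out or the 3′ over 5′ covariate was added. The Clec7a call held under all 21 alternatives (1.28 to 1.84). Without control combination replicate 3 the Arg1 call was lost (2.50, adjusted p = 0.0605), without replicate 2 the Clec10a call (2.15, 0.0589), and without either the F13a1 call (1.07, 0.0743 without replicate 2, and 0.82, 0.0955 without replicate 3). F13a1 was also lost without pmel-1 combination replicate 2 (0.94, 0.0596) and without the arrays with high Adipoq (0.94, 0.0627). Lyve1 held in 7 of 21 settings, with differences from -2.34 to -1.0 and adjusted p up to 0.655. Leaving out any array of the control combination, pmel-1 vehicle or trametinib groups, or pmel-1 combination replicate 1 or 2, ended its call (adjusted p from 0.0602 to 0.191). So did leaving out the arrays with high Adipoq (-1.62, 0.124), the mean of all probe sets (-1.0, 0.0667), array weights (-1.59, 0.0743), the replicate block (-1.89, 0.08) and a fit of only the arrays compared (-1.88, 0.0715). With the 3′ over 5′ covariate 2 calls were left, and Chil3 stood at 1.79 (adjusted p = 0.117), Clec10a at 1.49 (0.183), F13a1 at 1.03 (0.186) and Lyve1 at -1.57 (0.655). The ratio was 0.19 to 0.42 in control and 0.86 to 1.31 in pmel-1 tumours given both drugs, and its part in the result was not tested further. Of the general macrophage genes 7 of 13 were higher after pmel-1 transfer in this comparison (median 0.99), beside 2.66% of all genes. The count was 0 with that covariate or without control combination replicate 2.

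Among vehicle tumours, where the ratio was 0.25 to 0.28 in control and 0.18 to 0.22 in pmel-1 recipients, no member was called, and neither was any of 13783 genes (0% by limma). An unadjusted p under 0.05 was found for 7 of 9 members, beside 13.2% of all genes. The arrays did not overlap for 7 of 9 members, beside 46.5%. Arg1 and Chil3 are in both counts, and as they passed the filter only through arrays of pmel-1 recipients, their direction was built into their entry. The differences were 2.17 ± 0.46 for Arg1, 2.02 ± 0.31 for Chil3, 1.62 ± 0.36 for Clec10a, 1.52 ± 0.50 for Lyve1, 1.33 ± 0.32 for Mrc1, 1.18 ± 0.19 for F13a1 and 0.78 ± 0.17 for Cbr2. The smallest adjusted p was 0.0712, for Chil3 and F13a1. Clec7a and Retnla did not follow, at 0.02 (95% interval -0.41 to 0.45) and -0.01 (-1.0 to 0.98). The general macrophage genes had a median of 0.35 in this comparison, with 0 of 13 called, beside 1.33 for the 9 members and -0.02 for all genes. Leaving out control vehicle replicate 1 brought F13a1 past the threshold (1.37, adjusted p = 0.0402), and leaving out pmel-1 vehicle replicate 2 brought Chil3 past it (2.42, 0.035).

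Averaged over vehicle and both drugs, a comparison of 5 pmel-1 with 4 control arrays that was chosen after the values were seen, 7 of 9 members were higher after pmel-1 transfer and none lower, beside 2.02% of all genes (1.34% higher, 0.682% lower). The arrays did not overlap for 6 members, beside 2.42% of all genes. Arg1 and Chil3 are in both counts, and they passed the filter only through arrays of pmel-1 recipients, so their direction was built into their entry. The calls for Arg1 (2.42 ± 0.31, adjusted p = 0.00362, limma), Chil3 (2.07 ± 0.21, 0.000923), Clec10a (1.92 ± 0.24, 3.78-fold, 0.00338) and F13a1 (1.06 ± 0.13, 2.09-fold, 0.00271) held under all 21 alternatives, with adjusted p of at most 0.0266. Those for Mrc1 (1.17 ± 0.22, adjusted p = 0.0264), Clec7a (0.83 ± 0.13, 0.0121) and Cbr2 (0.56 ± 0.11, 0.0351) were lost under 8, 3 and 10 of them. Without pmel-1 vehicle replicate 1 all 3 were lost, with adjusted p of 0.0771 for Mrc1, 0.0812 for Clec7a and 0.0827 for Cbr2. Without control combination replicate 2 they were lost too, at 0.0981, 0.0673 and 0.103. Mrc1 and Cbr2 were also lost without control vehicle replicate 3 (0.116 and 0.154), control combination replicate 3 (0.0706 and 0.0958), pmel-1 vehicle replicate 2 (0.0658 and 0.0833) or pmel-1 combination replicate 2 (0.0584 and 0.0672). With the 3′ over 5′ covariate Mrc1 stood at 0.90 (adjusted p = 0.132), Clec7a at 0.66 (0.0618) and Cbr2 at 0.57 (0.137). With the replicate block Mrc1 (1.10, adjusted p = 0.123) and Cbr2 (0.57, 0.159) were lost. Cbr2 was lost as well without the arrays with high Adipoq (0.57, adjusted p = 0.0677) and under median centring (0.53, 0.0556). For Clec7a the mean joins 0.02 with vehicle and 1.64 with both drugs. For Lyve1, which was not called, a mean of -0.18 joins 1.52 and -1.88. The mean describes neither arm for these genes.

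Markers of other cells that can make these RNAs were set beside the transfer. Of the neutrophil genes, S100a9, Camp and Cxcr2 were under the threshold on all arrays and S100a8 was above it on 1. From 1 to 3 of the 6 neutrophil genes with a probe set were above the threshold on each array, and their mean was 5.33 to 5.65 across the 6 groups. The eosinophil genes Siglecf, Epx and Prg2 were under the threshold on all arrays, and the mean of 8 eosinophil and mast cell genes was 4.50 to 4.72. Of these 8 genes, 1 or 2 were above the threshold on each array. All 5 monocyte genes with a probe set were above the threshold on every array. Their mean was 7.62 to 7.65 in control vehicle, 7.53 to 7.78 in control combination and 7.68 to 7.92 in pmel-1 vehicle tumours, and 8.13 to 8.98 in pmel-1 tumours given both drugs. Plac8, a gene of monocytes, was higher after pmel-1 transfer among tumours given both drugs (1.27 ± 0.22, adjusted p = 0.0123, limma), the only monocyte gene of 5 tested that passed. Its call was lost with the 3′ over 5′ covariate (1.02, adjusted p = 0.35), without the arrays with high Adipoq (1.11, 0.0528) and without control combination replicate 2. Genes of leukocytes in general, such as Ptprc, which encodes CD45, differed more widely. Of 8 tested, 7 were higher after pmel-1 transfer with both drugs (median 1.58), beside 2.66% of all genes. The count was 3 with the 3′ over 5′ covariate or without control combination replicate 2, and 0 among vehicle tumours. The mean of these 8 genes was 7.37 to 7.52 in control and 8.92 to 9.34 in pmel-1 tumours given both drugs, and 6.91 to 6.92 and 7.33 to 7.39 with vehicle. The mean of 8 fibroblast genes was 9.26 to 9.96 in control and 8.20 to 9.17 in pmel-1 tumours given both drugs, and 1 of 8 was called, Lum, a collagen-binding proteoglycan (-2.61 ± 0.61, adjusted p = 0.0405). The mean of 7 dendritic cell genes was 5.70 to 5.83 in control and 5.98 to 6.25 in pmel-1 tumours given both drugs. Of these genes 3 or 4 were above the threshold there. With vehicle the mean was 5.68 to 5.91 and 5.82 to 5.90. The mean of 4 platelet genes was 6.61 to 6.68 in control and 6.59 to 6.67 in pmel-1 tumours given both drugs, and 6.73 to 6.92 and 6.84 to 6.96 with vehicle. The part of leukocytes, platelets and fibroblasts in the transfer results was not tested. What part monocytes have in the levels of Arg1 and Chil3 was not tested.

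**Figure D4:**
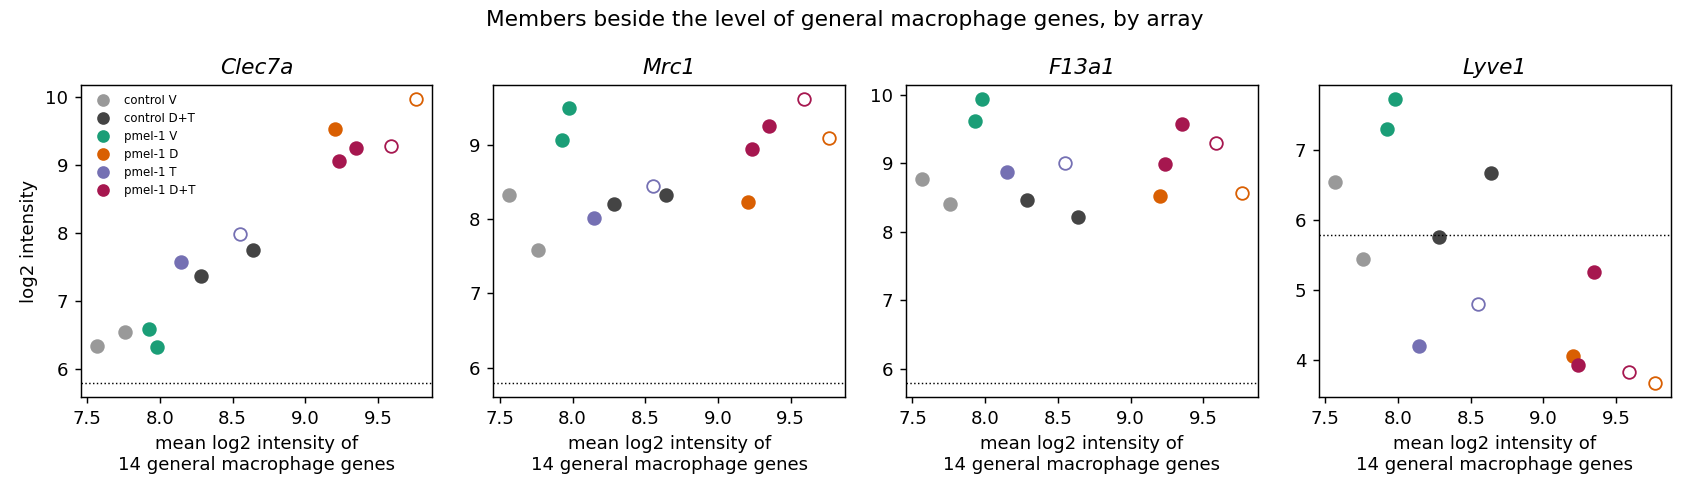
Log2 intensity of Clec7a, Mrc1, F13a1 and Lyve1 (vertical axes) against the mean log2 intensity of 14 general macrophage genes (horizontal axes) on each of 13 arrays, coloured by group. Open points are the 3 arrays with Adipoq above 9 and the dotted line is the threshold of 5.79. Clec7a rises along the horizontal axis, while the 2 pmel-1 vehicle arrays, at 7.93 and 7.98 on that axis, are the highest for F13a1 and Lyve1.

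The members did not vary as 1 group over the 13 arrays. Pearson's r, given as a description over arrays that share their groups, was 0.863 between Clec10a and Mrc1, 0.847 between Cbr2 and F13a1 and 0.824 between Arg1 and Chil3, and -0.808 between Clec7a and Lyve1. The 3 genes most like Clec7a were Blnk (r = 0.988), Clec4a3 (0.981) and Cybb (0.978), an adaptor of immune receptor signalling, a lectin-like receptor of myeloid cells and the catalytic subunit of the phagocyte NADPH oxidase. Those most like Clec10a were Ccl9 (0.950), Ms4a6b (0.941) and Srgn (0.927), and those most like Mrc1 were Ms4a6d (0.902), Ccl12 (0.882) and Ccl6 (0.879). Ccl6, a chemokine, was also among the 3 nearest to F13a1 (0.882) and Arg1 (0.826). The gene nearest to Arg1 was Adam8 (0.858), and Folr2, a folate receptor of resident macrophages, was second to F13a1 in likeness to Cbr2 (0.803). Retnla, Chil3 and Lyve1 were most like genes that are not markers of macrophages, namely Esyt2 (0.952), Sil1 (0.908) and Ppp1r2 (0.929).

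Some genes of IL-4 and IL-13 signalling changed with the drugs in both kinds of recipient. The cytokine genes Il4, Il13 and Tslp were under the threshold on all arrays, and the receptor chain Il4ra was above it on all (6.33 to 6.82). Of 10 genes tested, 4 rose and 2 fell with both drugs in pmel-1 recipients, and 2 rose and 1 fell in control recipients. Beside 24.3% higher and 21.2% lower, and 18.7% and 16.7%, of all genes, these shares are close to the background. With the 3′ over 5′ covariate 2 rose and 1 fell in pmel-1 recipients and 4 rose in control recipients, and without either pmel-1 vehicle array 2 rose in pmel-1 recipients. Stat6 rose by 0.53 ± 0.13 (adjusted p = 0.00497, limma) in pmel-1 and by 0.41 ± 0.14 (0.0386) in control recipients, where the call held in 11 of 21 settings and was lost without any array of its 2 groups. Irf4, a transcription factor of alternative activation and of the melanocyte lineage, rose by 0.94 ± 0.15 (0.000482) and 1.46 ± 0.17 (7.73e-05). Klf4, a transcription factor that acts with STAT6 and is also made by many other cells, fell by 2.94 ± 0.27 (1.52e-05) and 2.05 ± 0.30 (0.000354). The list's medians were 0.19 and 0.08, and between transfers 0 of its genes were called among vehicle tumours or tumours given both drugs.

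Other genes of alternative activation rose with both drugs in pmel-1 recipients at a share close to the background. Of 12 tested, 3 rose there (median 0.16), beside 24.3% of all genes. In tumours given both drugs, 4 were higher after pmel-1 transfer (median 0.51), beside 2.66% of all genes, though 0 with the 3′ over 5′ covariate. The 4 were Ccl8, a monocyte chemoattractant (2.25 ± 0.28, adjusted p = 0.00163, limma), Msr1, a scavenger receptor (1.5 ± 0.21, 0.00319), Mgl2 (1.20 ± 0.22, 0.016, with entry through the filter as above) and Tgm2, a transglutaminase (1.19 ± 0.22, 0.0168). The calls for Mgl2 and Tgm2 were also lost without either control combination array. Il10, Pdcd1lg2 and Chil4 were under the threshold on all arrays. Of 13 other genes of resident macrophages tested, 5 rose and 2 fell with both drugs in pmel-1 recipients (median 0.05), beside 24.3% and 21.2% of all genes. In control recipients 3 rose (median 0.37), beside 18.7%. With the 3′ over 5′ covariate these 3 counts were 3, 1 and 6. Maf rose by 1.37 ± 0.23 (adjusted p = 0.000635) and 2.35 ± 0.25 (5.37e-05), and Fcgrt, the neonatal Fc receptor, by 0.68 ± 0.17 (0.00594) and 1.20 ± 0.18 (0.000464). Stab1, stabilin-1, rose by 1.25 ± 0.23 in pmel-1 recipients (0.0013). With that covariate the calls in pmel-1 recipients for Fcgrt (0.49, adjusted p = 0.196) and Stab1 (0.71, 0.113) were lost. The falls were Igf1 (-0.88 ± 0.30, 0.0344), lost without either pmel-1 vehicle array or combination replicate 1 or 2, and Marco (-0.53 ± 0.20, 0.0484), which held in 4 of 20 settings. With trametinib Folr2 fell by 0.59 ± 0.16 (0.0134), a call lost with the covariate (0.0624) and without either pmel-1 vehicle array or trametinib replicate 2, and between transfers 0 of the 13 were called in vehicle tumours or with both drugs. Maf, Fcgrt and Igf1 are also made by tumour and stromal cells, so bulk values do not assign them to macrophages.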

How the data were processed

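RNA of SM1 tumours was hybridised to 13 Affymetrix GeneChip mouse arrays. Per probe set (45101) the authors deposited a log2 intensity, made with RMA and the affy package per the submitters' processing notes, with versions not given. RMA sets the arrays to a like distribution, so each value is relative to its array, and precision is limited by how few arrays a group holds. Of the probe sets, 34945 have 1 gene symbol, and for each of 18193 symbols the one with the highest mean was kept. Genes above 5.79 (40th percentile) on at least 2 arrays were fitted with limma 3.58.1 in R 4.3.3 as 6 group means with 7 residual degrees of freedom. P-values were adjusted by Benjamini-Hochberg over 13783 genes within each of 11 contrasts, and called under 0.05. The fit was tested on simulated data. The members and gene lists were chosen with earlier results of these data known. All members are named, with up to 4 genes of each list by smallest p in the contrast described and the 3 genes most correlated with each member. Alternatives were other scaling, filters and probe set rules, array weights, a replicate block, a 3′ over 5′ covariate, and leaving out arrays. Replicate numbers are shared between groups, and arrays of the same number were not paired in the main fit. Their deviations from group means had r of -0.46 to 0.45 over 23 pairs, 4 above 0.1. In groups of 2 arrays the deviations mirror each other, so these r values are not independent and cannot exclude an effect shared by a replicate number. A replicate block kept 25 of 33 member calls. Promoters are from RefSeq (GRCm38.p6).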

Additional observations from a re-analysis of the deposited data

Results flagged for a closer look

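Clec7a responded to both drugs in either kind of recipient, but its rise was 1.625 larger on the log2 scale after pmel-1 than after control transfer (SE 0.27, limma interaction term, adjusted p = 0.0498). The rise was 2.74 ± 0.18 over 3 combination and 2 vehicle arrays in pmel-1 recipients and 1.12 ± 0.20 over 2 and 2 in control recipients. All 3 pmel-1 combination arrays (9.06 to 9.28) were above both control combination arrays (7.37 and 7.76), while the vehicle arrays of the 2 transfers overlapped. The difference passed in 7 of 21 alternative settings, and 39 of 13783 genes passed the same test.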

How the results depend on the processing

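Of 33 member results called, between 20 and 33 were kept under each of 21 alternative settings (leaving out the array with high Acta1 and leaving out control vehicle replicate 3 are 1 setting) and 0 reversed. The 3′ over 5′ covariate kept 20, leaving out 1 array 24 to 33, and the replicate block 25. Counts of members called that moved by over 1.5 times were these. For both drugs in control recipients 2 became 1 under median centring, without the filter, with each probe set tested, under the replicate block and without the array with high Acta1. For the interaction 1 became 0 under median centring, the replicate block, the 3′ over 5′ covariate and without the array with high Acta1. For both drugs in pmel-1 recipients 4 became 2 under the replicate block and under the covariate. For both drugs against trametinib 1 became 0 under the replicate block and 2 without the 3 arrays with high Adipoq. For dabrafenib against trametinib 1 became 0 with only the arrays compared. The transfer with both drugs fell from 6 to 2 and its mean over both arms from 7 to 4 under the covariate. Leaving out 1 array gave 2 to 4 for both drugs and 4 to 6 for dabrafenib in pmel-1 recipients, 4 to 7 for trametinib, and 1 to 3 for both drugs in control recipients. It gave 0 to 1 for the interaction, 0 to 1 for both drugs or dabrafenib against trametinib and 0 to 0 for both drugs against dabrafenib. For the transfer it gave 3 to 7 with both drugs, 0 to 1 with vehicle and 4 to 7 as the mean. With a single array left in a group, its spread is assumed to be that of the other groups. Over all genes, the calls for both drugs in pmel-1 recipients ran from 2756 (covariate) to 10887 (each probe set), beside 6282. Those for the transfer with both drugs ran from 46 (covariate) to 1206 (without dabrafenib replicate 1), beside 584. Where a cause of these shifts is not part of the setting itself, the cause was not tested. Differences from groups under 5.79 are limited by background.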

Other observations

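Genes of classical activation, the interferon-driven state often set against alternative activation, rose in part with the drugs in pmel-1 recipients. Of 7 tested, 4 rose with both drugs in pmel-1 recipients, 3 with dabrafenib, 1 with trametinib and 0 in control recipients, beside 24.3%, 21.9%, 19.5% and 18.7% of all genes higher. With the 3′ over 5′ covariate the counts for both drugs and for dabrafenib were 1 and 1. Cxcl9, a chemokine induced by interferon gamma, rose by 4.19 ± 0.31 with both drugs (adjusted p = 4.38e-06, limma), by 3.99 ± 0.34 with dabrafenib (1.42e-05) and by 1.97 ± 0.34 with trametinib (0.000945). Its response to both drugs was larger after pmel-1 than after control transfer by 4.17 ± 0.45 (adjusted p = 0.0225). Both control groups were under the threshold there, so the size is not exact. Cxcl9 thus passed the filter only through arrays of pmel-1 recipients. A difference in this direction was built into its entry, though it was also called with no filter. That call held in 15 of 21 settings and was lost with the covariate (3.61, adjusted p = 0.301), with the replicate block, and without control vehicle replicate 3, either control combination array or pmel-1 vehicle replicate 1. Cd86, a costimulatory ligand, rose by 0.96 ± 0.22 with both drugs (0.00399) and by 1.12 ± 0.24 with dabrafenib (0.00342), but by 0.36 (0.316) and 0.53 (0.151) with the covariate, which did not pass. Among tumours given both drugs, 4 of the 7 were higher after pmel-1 than after control transfer, beside 2.66% of all genes, and 1 with the covariate or without control combination replicate 3. Among them were Cxcl9, with entry through the filter as above, Cxcl10 (2.69 ± 0.41, 0.00612) and Fpr2 (0.85 ± 0.16, 0.0164). With the covariate Cxcl10 stood at 2.17 (adjusted p = 0.225) and Fpr2 at 0.54 (0.463), which did not pass. Both calls were also lost without control combination replicate 3, and that for Fpr2 without replicate 2.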
